A study of Mus musculus with 18 samples.

Results

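The cathepsins described here are 8 proteases of the endosome and lysosome, encoded by Ctsa, Ctsb, Ctsc, Ctsd, Ctsh, Ctsl, Ctss and Ctsz, followed by gene expression array in the ileum of growing mice. The genes were chosen by symbol. Each was represented by a probe set, a group of short oligonucleotides read together as a single level. Among probe sets annotated with a single symbol, the one with the highest mean over the 18 arrays was taken. All 8 had such a probe set and passed the filter on dim signal, so that they are 8 of the 8630 genes tested and 8 of the 18193 genes with a probe set of 1 symbol. The study took the ileum, the last stretch of the small intestine, from C57BL/6 mice on postnatal days 4, 7, 9, 11, 24 and 32, with 3 individual mice at each age. The pieces held every layer of the gut wall, per the series' description, and the labels name no treatment, genotype, sex or litter, and each array was taken as 1 mouse, although a day 7 title and a day 9 title carry the same number. Days 24 and 32 (6 arrays) are called after weaning and days 4 to 11 (12 arrays) suckling, a division that rests on general knowledge of laboratory mice.

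Cathepsins are made as inactive precursors, carried to acidic compartments mostly by mannose 6-phosphate receptors, and activated there by cleavage. In the suckling rodent ileum, absorptive cells take up milk macromolecules by endocytosis and digest them in a large lysosomal vacuole, a function that is lost around weaning when such cells are replaced. Ctsb, Ctsc, Ctsh, Ctsl, Ctss and Ctsz encode cysteine proteases of the papain family, Ctsd encodes an aspartic protease, and Ctsa encodes a serine carboxypeptidase.

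Lysosomal genes as a class are known to carry E-boxes of the sequence CACGTG in their promoters, which bind transcription factors of the TFEB family. The promoters of the members were searched for it for that reason. RefSeq promoter windows of 300 bases (250 before and 50 after the annotated start, build GRCm38.p6) were matched for 6 of the 8 genes, as 7 windows, since Ctsa had 2. The windows below are those of the genes that hold the E-box, with its letters in capitals, and that of Ctsc, the member that went the other way; each is written 5′ to 3′ on the strand of the gene.
Ctsa, second window, chr2:164833523-164833822, plus strand: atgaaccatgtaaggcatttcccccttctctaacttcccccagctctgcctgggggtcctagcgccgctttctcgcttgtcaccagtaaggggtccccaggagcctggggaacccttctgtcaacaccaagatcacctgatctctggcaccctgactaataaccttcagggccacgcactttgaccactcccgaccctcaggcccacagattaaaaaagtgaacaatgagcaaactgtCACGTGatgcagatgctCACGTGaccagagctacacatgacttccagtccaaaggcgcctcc
Ctsd, chr7:142387778-142388077, minus strand: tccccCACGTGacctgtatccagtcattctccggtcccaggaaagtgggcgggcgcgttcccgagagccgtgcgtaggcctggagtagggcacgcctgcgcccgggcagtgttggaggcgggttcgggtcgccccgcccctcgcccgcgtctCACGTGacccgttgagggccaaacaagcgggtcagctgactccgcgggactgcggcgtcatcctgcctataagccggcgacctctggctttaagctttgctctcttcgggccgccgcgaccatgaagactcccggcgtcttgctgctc
Ctsl, chr13:64370471-64370770, minus strand: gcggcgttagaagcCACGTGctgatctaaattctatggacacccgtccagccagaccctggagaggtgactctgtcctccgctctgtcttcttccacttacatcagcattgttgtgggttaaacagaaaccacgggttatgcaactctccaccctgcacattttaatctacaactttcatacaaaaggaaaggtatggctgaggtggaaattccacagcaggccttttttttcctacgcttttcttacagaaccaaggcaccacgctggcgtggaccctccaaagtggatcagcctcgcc
Ctsc, chr7:88277835-88278134, plus strand: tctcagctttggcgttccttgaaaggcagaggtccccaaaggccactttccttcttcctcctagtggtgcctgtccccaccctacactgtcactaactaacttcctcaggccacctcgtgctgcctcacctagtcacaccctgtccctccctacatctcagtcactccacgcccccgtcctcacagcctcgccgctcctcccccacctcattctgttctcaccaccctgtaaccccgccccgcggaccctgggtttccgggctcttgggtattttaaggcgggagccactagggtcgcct
The E-box CACGTG, which reads the same on both strands, was present in 3 of the 7 windows (Ctsa, Ctsd and Ctsl), against 7.15% of the 32851 windows of all genes. In Ctsa it began 12 bases upstream of the annotated start and again on base 6 downstream of it, in Ctsd 245 and 98 bases upstream, and in Ctsl 236 bases upstream. The longer palindrome TCACGTGA, which contains the E-box, was found around both sites of Ctsa and around the nearer site of Ctsd, in 2 of 7 windows against 0.974% of all windows. The windows of Ctsc, Ctss and Ctsz and the first window of Ctsa held neither. Ctss and Ctsz fell after weaning and Ctsc rose, so that windows without the E-box belonged to genes of both directions. A match of letters describes the sequence and does not show that a factor binds there.

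The correlation between arrays of an age was at least 0.983, and identical arrays were not found. Of the markers the tissue label calls for, all 8 epithelial genes averaged log2 7.61 or more at both stages. The ileal enterocyte genes Fabp6, Slc51a, Slc51b and Fgf15 averaged 6.43 or more at both stages, but Slc10a2 read 7.49 after weaning and 2.15 during suckling, under the array medians, so that the suckling arrays do not show it. Spiked poly-A control RNAs read log2 4.98 to 6.37 after weaning and 3.53 to 4.51 during suckling, and the 18S ribosomal RNA probe sets 7.01 to 10.85 and 4.93 to 8.19. The difference between 3′ and 5′ probe sets, a sign of RNA integrity and labelling, was 0.48 to 1.40 after weaning and 0.35 to 0.80 during suckling for beta-actin, but 1.58 to 3.33 and 0.43 to 0.99 for pyruvate carboxylase. Xist read 3.86 to 8.68 after weaning and 4.30 to 10.13 during suckling. After weaning only day 24 replicate 2 was high, at 8.68, and the others read 3.86 to 4.43. During suckling day 4 replicate 3, day 7 replicate 3 and day 11 replicate 2 read 4.30, 4.69 and 5.12, and the others 9.55 to 10.13. High and low Xist were thus unevenly divided between the stages, and every array of day 32 was low. With Xist as a covariate all 8 calls between the stages held, the values with the hybridization controls are given with the single arrays, and the part of the other controls in the differences was not tested. All 5 fibroblast markers fell after weaning, with a summed linear level of 4071 to 6508 after weaning and 8360 to 13030 during suckling, and of the ileal enterocyte markers 4 rose and 1 fell, with 11162 to 13690 after weaning and 1271 to 2015 during suckling. Over all genes tested 41.8% were called lower and 31.1% higher after weaning. The part of fibroblasts and enterocytes in the cathepsin differences was not tested. In a bulk sample, fewer cells of a type and less RNA per cell cannot be told apart.

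After weaning 7 of the 8 cathepsins were lower than during suckling and 1, Ctsc, was higher. Over all genes tested 72.9% were called in the same comparison, 41.8% lower and 31.1% higher, so that a call by itself was common. The sizes ran from 15.5-fold lower for Ctsl through 7.85-fold for Ctsa, 4.33-fold for Ctsh, 4.20-fold for Ctsz, 2.57-fold for Ctsb and 2.31-fold for Ctsd to 1.44-fold for Ctss, and Ctsc was 2.52-fold higher. The median log2 difference of the 8 was -1.72, beside -0.07 for all genes. All of these are differences of log2 levels in a limma fit with the 6 ages as groups and all 18 arrays sharing the estimate of spread, and a gene was called at a Benjamini-Hochberg adjusted p below 0.05 over all 8630 genes. For each of the 8 genes the arrays after weaning did not overlap with those of suckling, a property of 21.7% of all genes in the lower and 15.5% in the higher direction. Nothing in the labels says how the mice were related, so that p-values measure the spread between these mice only.

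**Figure D1:**
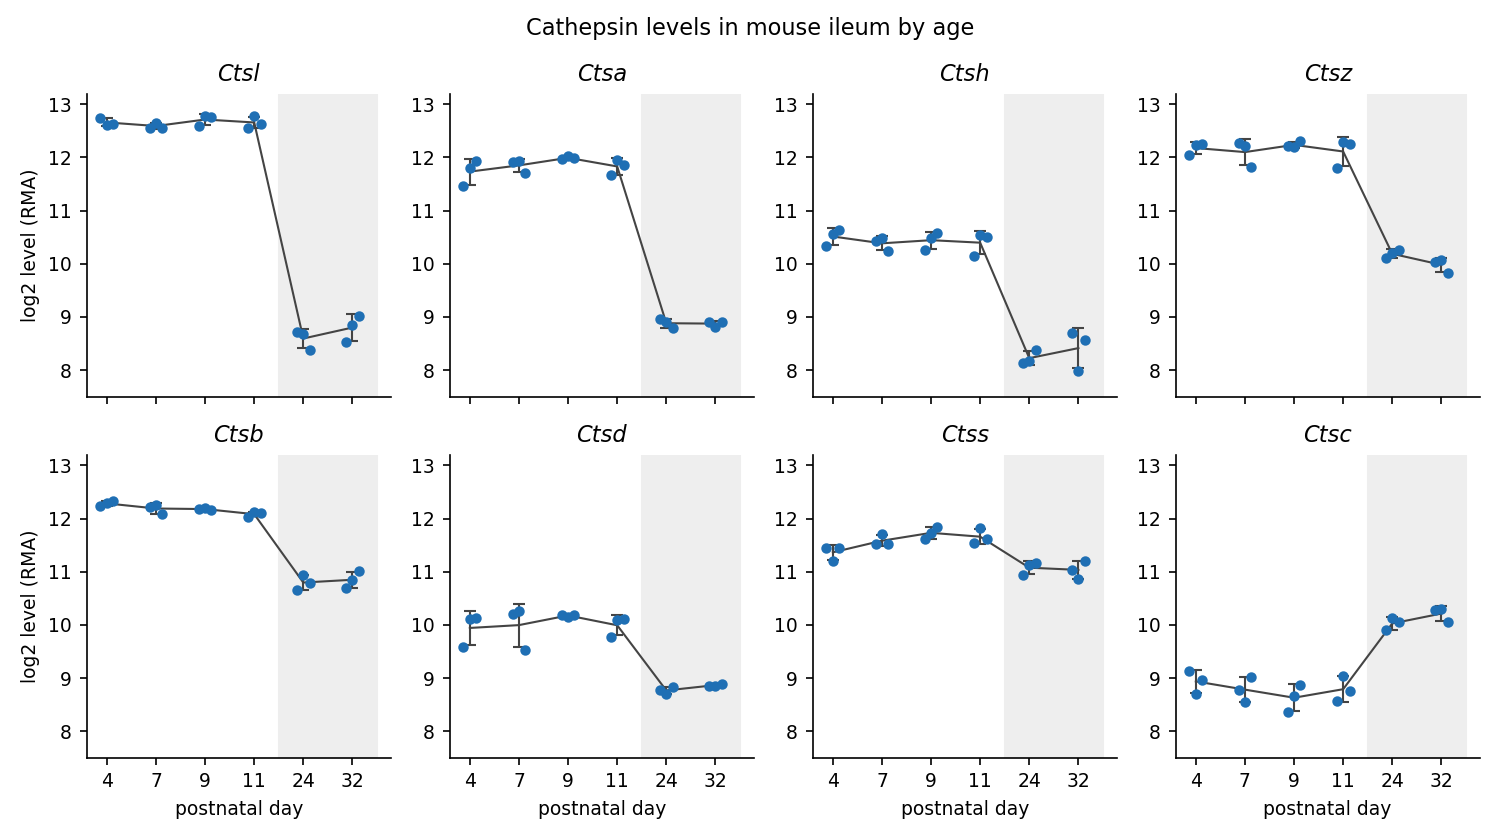
Log2 level (RMA, vertical axis) of each cathepsin against postnatal day (horizontal axis, ages evenly spaced), with a point per array and the mean ± SD of 3 arrays as a line with bars; grey marks days 24 and 32. Levels were near flat to day 11 except for Ctss, which averaged 11.36 on day 4 and 11.73 on day 9. On days 24 and 32 the levels of 7 genes lay below and those of Ctsc above all suckling arrays.

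Ctsl encodes cathepsin L, a potent endopeptidase of lysosomes. Its log2 level was 8.38 at the lowest, 8.70 at the median and 9.02 at the highest over the 6 arrays after weaning, against 12.55, 12.63 and 12.77 over the 12 suckling arrays. The suckling arrays thus lay within a narrow band far above the highest array after weaning. The difference was -3.96 ± 0.08 (SE, adjusted p = 3.49e-18, limma), and 43 of 8630 genes had a more negative one. By age the mean was 12.66 ± 0.08 on day 4, 12.59 ± 0.06 on day 7, 12.71 ± 0.10 on day 9, 12.66 ± 0.11 on day 11, 8.59 ± 0.19 on day 24 and, on day 32, 8.80 ± 0.25 (mean ± SD over 3 mice). No neighbouring ages within suckling were separated, and the arrays of days 24 and 32 overlapped.

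Ctss encodes cathepsin S, an endopeptidase that stays active at neutral pH and trims the invariant chain of MHC class II in antigen-presenting cells. It had the smallest change of the 8, with 10.87, 11.07 and 11.20 (lowest, median, highest) after weaning and 11.21, 11.58 and 11.84 during suckling. The highest array after weaning and the lowest suckling array, day 4 replicate 2, all but met. The difference was -0.53 ± 0.07 (adjusted p = 2.72e-06, limma). Its mean was 11.36 ± 0.14 on day 4, 11.58 ± 0.11 on day 7, 11.73 ± 0.11 on day 9, 11.66 ± 0.14 on day 11, 11.08 ± 0.12 on day 24 and 11.03 ± 0.16 on day 32. Day 4 lay below day 7 without overlap, and in the order of level day 7 overlapped with day 11 and day 11 with day 9.

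Macrophages and dendritic cells are rich in Ctss, and their markers moved in both directions. Of 12 macrophage markers 7 were measured. After weaning Lyz2 rose 12.3-fold (Lyz2 has a near-identical paralog, Lyz1, in Paneth cells, and its value is uncertain for that reason), while Csf1r was 7.45-fold and Cd68 2.36-fold lower. Cd68 averaged 4.62 after weaning and 5.86 during suckling, both below the filter level of log2 6, so that the filter favoured its fall. The complement genes C1qa, C1qb and C1qc had log2 differences of 0.06, 0.13 and -0.18 and Mrc1 one of -0.08, none of them called. The summed linear level of the 7 was 2194 to 3014 after weaning and 3218 to 3660 during suckling. That sum leans on the brightest gene of each stage, Lyz2 after weaning (mean log2 10.68) and Csf1r during suckling (11.40). The marker Adgre1 was dim, at log2 5.12 to 5.32 after weaning and 5.24 to 5.45 during suckling, and was not tested. All 4 measured genes of the 9 in the dendritic and B cell list, Cd74, H2-Aa, H2-Ab1 and H2-Eb1, rose, with a summed level of 1645 to 6437 after weaning and 1255 to 1782 during suckling. Of these 4 genes 0 were called on day 24 against day 11 (limma, median log2 difference 0.20) and 0 at an unadjusted p below 0.05, while all 4 were called higher on day 32 against day 24 (median 1.01). After weaning 31.1% of all genes tested were called higher and 41.8% lower. The part of macrophages, dendritic cells and B cells in the Ctss difference was not tested.

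Ctsb encodes cathepsin B, which cuts within proteins and also removes dipeptides from their carboxyl ends. Its arrays read 10.65, 10.82 and 11.01 (lowest, median, highest) after weaning and 12.03, 12.19 and 12.33 during suckling, with a clear gap between the groups. The difference was -1.36 ± 0.06 (adjusted p = 8.16e-13, limma). By age the mean was 12.28 ± 0.05 on day 4, 12.19 ± 0.10 on day 7, 12.18 ± 0.02 on day 9, 12.08 ± 0.04 on day 11, 10.80 ± 0.15 on day 24 and 10.85 ± 0.15 on day 32. Day 11 lay below day 9 without overlap, while the other neighbours within each stage overlapped.

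Cathepsins H, Z and C act at the ends of proteins. Ctsh, the gene of an aminopeptidase, read 7.99, 8.27 and 8.69 (lowest, median, highest) after weaning and 10.15, 10.49 and 10.64 during suckling, with a difference of -2.11 ± 0.10 (adjusted p = 1.17e-12, limma). Ctsz, the gene of a carboxypeptidase also called cathepsin X, read 9.82, 10.09 and 10.26 after weaning and 11.80, 12.23 and 12.30 during suckling, with a difference of -2.07 ± 0.09 (adjusted p = 1.58e-13, limma). Every array after weaning lay below every suckling array for both. By age Ctsh averaged 10.51 ± 0.16 on day 4, 10.38 ± 0.13 on day 7, 10.44 ± 0.16 on day 9, 10.40 ± 0.21 on day 11, 8.22 ± 0.13 on day 24 and 8.41 ± 0.38 on day 32, and Ctsz 12.17 ± 0.11, 12.10 ± 0.25, 12.23 ± 0.06, 12.11 ± 0.27, 10.19 ± 0.08 and 9.98 ± 0.14 at the same ages. Ctsh varied more among the mice of day 32 (8.69, 7.99 and 8.56) than among those of day 24 (8.14, 8.16 and 8.37).

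Ctsc encodes cathepsin C, a dipeptidyl peptidase that activates granzymes and the serine proteases of neutrophils and mast cells. It read 9.90, 10.10 and 10.31 (lowest, median, highest) after weaning and 8.37, 8.77 and 9.14 during suckling, so that every array after weaning was higher. The difference was 1.33 ± 0.10 (adjusted p = 7.30e-10, limma), and 4.74% of all genes had a larger one. Its mean was 8.94 ± 0.22 on day 4, 8.78 ± 0.24 on day 7, 8.63 ± 0.25 on day 9, 8.79 ± 0.24 on day 11, 10.03 ± 0.12 on day 24 and 10.21 ± 0.14 on day 32. The spread among suckling mice was wide for this gene, and no suckling ages were separated.

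The granzymes, proteases of cytotoxic lymphocytes that cathepsin C activates, also rose after weaning. Gzmb rose 5.59-fold and Gzma 4.12-fold, and these were the 2 of 7 T and NK cell markers that passed the filter, with a summed linear level of 45.5 to 610.0 after weaning and 21.6 to 32.0 during suckling. Their suckling means of 3.12 and 4.23 show that they passed only through the arrays after weaning, so that a rise was selected for, and the fold of Gzmb starts from a level under the array medians. The other 5, Cd3e, Cd3g, Cd8a, Nkg7 and Prf1, were dim, with the highest array at 5.95 after weaning and 5.13 during suckling, both of Cd3e. On day 32 Gzma was 5.59-fold and Gzmb 6.05-fold higher than on day 24 (both called), while Ctsc had a log2 difference of 0.19 ± 0.16 (adjusted p = 0.478, limma) between those ages; whether the genes differ in this step was not tested. Of 6 neutrophil markers 0 were measured and of 7 mast cell markers only Kit, which had a log2 difference of -0.20 and was not called. The other mast cell and neutrophil markers with a probe set did not pass the filter. Among them Mcpt2, a mast cell protease gene, ranged from 3.59 to 4.67 after weaning and from 3.86 to 6.39 during suckling, Mcpt1 from 2.79 to 4.04 and from 3.03 to 5.63, and S100a9 of neutrophils from 2.75 to 3.30 and from 2.95 to 4.75. Epithelial markers moved as well: 6 of 8 rose and 2 fell, with a summed level of 25933 to 32129 after weaning and 14853 to 16784 during suckling. Among all genes tested 31.1% were called higher and 41.8% lower. The part of lymphocytes, mast cells, neutrophils or epithelium in the rise of Ctsc was not tested.

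Ctsd encodes cathepsin D, the main aspartic endopeptidase of lysosomes. It read 8.69, 8.84 and 8.89 (lowest, median, highest) after weaning and 9.53, 10.12 and 10.26 during suckling. The difference was -1.21 ± 0.10 (adjusted p = 6.68e-09, limma). Among the suckling mice of day 4 the arrays were 9.58, 10.11 and 10.13 and among those of day 7 they were 10.20, 10.26 and 9.53, so that a single mouse at each of these ages made most of the spread. By age the mean was 9.94 ± 0.31 on day 4, 10.00 ± 0.41 on day 7, 10.18 ± 0.03 on day 9, 9.99 ± 0.18 on day 11, 8.77 ± 0.07 on day 24 and 8.87 ± 0.02 on day 32. The mice of day 9 (10.15 to 10.19) lay above those of day 4 (up to 10.13) and day 11 (up to 10.10) without overlap. Those of day 7 overlapped with each other suckling age, and the mice of day 32 lay just above those of day 24.

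Ctsa encodes cathepsin A, also called protective protein, which shields beta-galactosidase and neuraminidase in a lysosomal complex. It read 8.78, 8.90 and 8.95 (lowest, median, highest) after weaning and 11.46, 11.92 and 12.02 during suckling. The difference was -2.97 ± 0.07 (adjusted p = 9.10e-17, limma), and 104 genes had a more negative one. Its partners went the same way, with beta-galactosidase (Glb1) 7.88-fold and the neuraminidase Neu1 3.16-fold lower after weaning. By age Ctsa averaged 11.73 ± 0.24 on day 4, 11.85 ± 0.13 on day 7, 11.99 ± 0.03 on day 9, 11.83 ± 0.15 on day 11, 8.88 ± 0.09 on day 24 and 8.87 ± 0.05 on day 32. Day 9 lay above day 7 without overlap.

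The loss and the gain fell between day 11 and day 24, an interval in which no other age was sampled. On day 24, 7 of the 8 genes were lower than on day 11 and Ctsc was higher, where 59.2% of all genes were called, 32.3% lower and 26.9% higher. Ctsl read 8.72, 8.68 and 8.38 on day 24, against 12.56, 12.77 and 12.63 on day 11, which is 16.7-fold lower (log2 difference -4.06 ± 0.12). Ctsa read 8.95, 8.90 and 8.78 on day 24, against 11.66, 11.96 and 11.86 on day 11, or 7.72-fold lower. Each mouse of day 24 was thus well below each mouse of day 11 for these genes. Ctsh was 4.50-fold, Ctsz 3.79-fold, Ctsb 2.44-fold and Ctsd 2.34-fold lower on day 24. Ctsc was 2.36-fold higher (log2 difference 1.24 ± 0.16). Ctss had a log2 difference of -0.58 ± 0.12 (adjusted p = 0.000349, limma). That call was lost among the arrays of the higher hybridization group alone (-0.46), where day 11 is represented only by replicate 1.

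Within suckling 0 of the 8 genes passed the limma test of day 11 against day 4, where 2.89% of all genes did, and 0 passed the F test over days 4, 7, 9 and 11, which 1.24% passed. At an unadjusted p below 0.05 the number was 1 in either test, Ctss. Ctss was 0.29 log2 units higher on day 11 than on day 4 (95% interval 0.05 to 0.54, adjusted p = 0.18). Ctsb read 12.03, 12.12 and 12.10 on day 11, against 12.23, 12.29 and 12.33 on day 4, groups that did not overlap, but the difference of -0.20 was not called (95% interval -0.42 to 0.01, adjusted p = 0.296, limma). For Ctsl the interval of the difference was -0.26 to 0.26 and for Ctsa -0.15 to 0.35, so that changes of the size seen later were far outside what these arrays allow. In the steps between adjacent suckling ages 0 of 8 genes were called, where 0.0811% of all genes were called for day 7 minus day 4, 0.0463% for day 9 minus day 7 and 0.0463% for day 11 minus day 9, and 0 of the 8 had an unadjusted p below 0.05 (limma).

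On day 32 against day 24, 0 of the 8 genes were called by limma and 0 had an unadjusted p below 0.05, where 12.3% of all genes were called. The largest differences were -0.21 for Ctsz (95% interval -0.50 to 0.09) and 0.21 for Ctsl (-0.06 to 0.47). Ctsz read 10.04, 10.08 and 9.82 on day 32, against 10.10, 10.20 and 10.26 on day 24, without overlap. Across all 6 ages all 8 genes passed the F test, as did 68.3% of all genes.

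**Figure D2:**
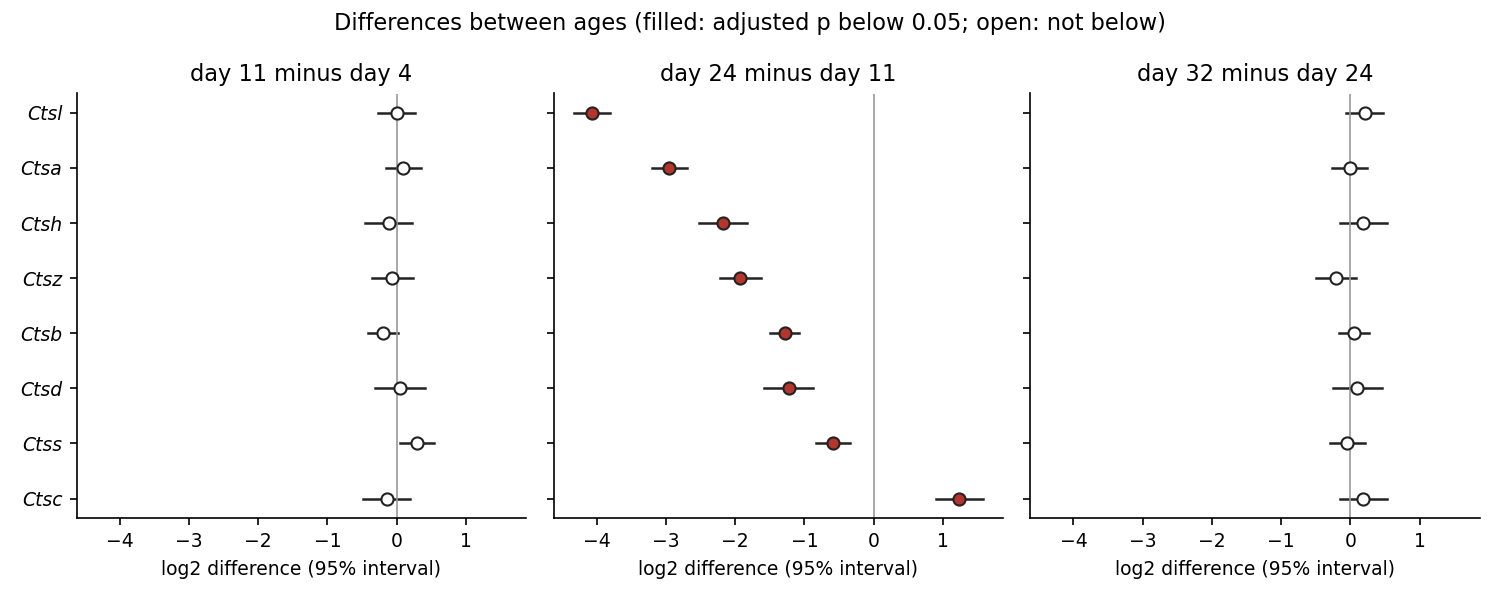
Log2 differences (horizontal axes) with 95% intervals from the limma fit for each cathepsin, in panels for day 11 minus day 4, day 24 minus day 11, and day 32 minus day 24; filled points had an adjusted p below 0.05. All 8 points are filled in the middle panel and 0 in the others.

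The 8 genes changed by unequal amounts. For each of the 28 pairs the difference of the pair's log2 levels was taken per array and compared between the stages by a two-sided exact permutation test over the 18564 divisions of the arrays into 6 and 12. In 26 pairs the arrays of the stages did not overlap and p was 5.39e-05, the smallest this test can give (Benjamini-Hochberg adjusted over the 28 pairs, 5.8e-05). The change of Ctsa minus that of Ctsl was 0.98, the change of Ctsa minus that of Ctsh -0.86, and the change of Ctsc minus that of Ctsl 5.29 log2 units. The pairs that did not pass were Ctsb with Ctsd, whose changes differed by -0.15 (exact permutation adjusted p = 0.17), and Ctsh with Ctsz, whose changes differed by -0.04 (exact permutation adjusted p = 0.704). How many pairs of other genes would reach the smallest p of this test was not computed. The count of 26 is thus not shown to be particular to cathepsins. An unequal change of probe sets need not be an unequal change of transcripts, because probe sets of a single gene also differed.

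The 8 genes had 19 probe sets with a single symbol, of which 15 passed the filter on dim signal, 11 of them in genes with several passing. The second Ctsl probe set was 9.75-fold lower after weaning (log2 difference -3.29 ± 0.10), at 2.87 after weaning and 6.15 during suckling. Its level after weaning lies below the array medians of 3.88 to 3.97, so that it passed the filter only through the suckling arrays and a fall was selected for. The 4 Ctsb probe sets that passed were 2.57-fold, 3.12-fold, 4.87-fold and 2.71-fold lower. The last of these averaged 5.61 after weaning, below the filter level, and 7.05 during suckling. The other Ctsh probe set was 5.57-fold lower, and the other Ctsz probe sets 4.80-fold and 6.15-fold lower. All passing probe sets of a gene thus had the same direction, which the filter favoured for the second Ctsl and the last Ctsb probe set. Among the passing probe sets the described one of Ctsb, Ctsh and Ctsz gave the smallest change of its gene. The dim probe sets of Ctsa and Ctsb were 1.47-fold and 2.07-fold lower. Ctsc rested on a single probe set, since its other 2 read 2.98 and 3.01 after weaning and 2.90 during suckling, below the array medians.

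**Figure D3:**
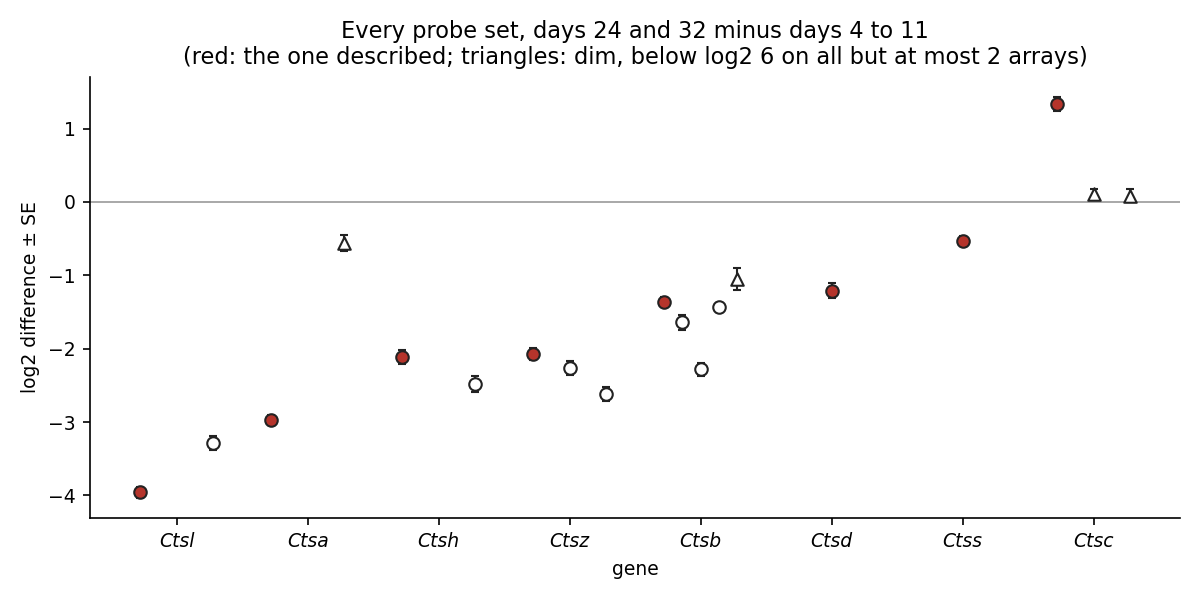
Log2 difference ± SE (vertical axis) of days 24 and 32 minus days 4 to 11 for every probe set of each cathepsin, with the described probe set in red and dim probe sets as triangles. The passing Ctsb probe sets spread from -1.36 to -2.28, and the dim Ctsc probe sets lie near 0.

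Beyond the 8 members, 15 other cathepsin genes were looked up and 2 were measured. Ctso fell 2.47-fold after weaning (log2 difference -1.30 ± 0.08). Ctse, an aspartic protease of endosomes and of gastric and immune cells, rose 3.14-fold (1.65 ± 0.31, adjusted p = 0.000102, limma). It averaged 7.19 after weaning and 5.53 during suckling, the latter below the filter level, so that the filter favoured its rise. The remaining 13 had a probe set but stayed below the filter, among them the bone-resorbing protease gene Ctsk at 4.60 to 5.36 after weaning and 5.34 to 5.87 during suckling, and the placental genes Ctsj, Ctsm, Ctsq and Ctsr.

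All 6 measured genes of 7 other lysosomal proteases fell after weaning (median log2 difference -2.14, beside -0.07 for all genes). In the same comparison 41.8% of all genes tested were called lower and 31.1% higher, shares that apply to the inhibitors below as well. Lgmn, the asparagine endopeptidase legumain that processes several cathepsin precursors, was 23.4-fold lower, at 7.86 after weaning and 12.41 during suckling. Dpp7 was 15.5-fold, the tripeptidyl peptidase Tpp1 5.49-fold, Prcp 3.52-fold, Scpep1 3.17-fold and Cpq 2.78-fold lower. Dpp7 and Prcp averaged 5.95 and 5.52 after weaning, below the filter level of log2 6, so that the filter could favour their fall. Lgmn was called again on day 32 against day 24, 1.78-fold higher (adjusted p = 0.00197, limma). Of 4 measured cathepsin inhibitors 3 fell, stefin B (Cstb) 3.28-fold, Ctla2a 1.96-fold and Cst6 1.46-fold. Ctla2a averaged 5.08 after weaning and 6.05 during suckling, so that the filter favoured its fall as well. Cystatin C (Cst3), an abundant secreted inhibitor, had a log2 difference of 0.07 (adjusted p = 0.527, limma).

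The machinery that delivers these enzymes moved in part. Of 11 measured genes of lysosomal enzyme sorting 7 fell and 3 rose, with a median of -0.37, where 41.8% of all genes fell and 31.1% rose. The adaptor Gga2, which carries mannose 6-phosphate receptors from the Golgi, was 10.8-fold and the cation-independent receptor Igf2r 3.37-fold lower, the clathrin adaptor subunit Ap1m2 was 1.99-fold lower, and the alternative sorting receptor Sort1 rose 2.28-fold. The cation-dependent receptor M6pr differed by only -0.23 log2 units. Of 14 measured lysosomal membrane genes 12 fell and 0 rose (median -1.31), beside the same shares of all genes. The calcium channel gene Mcoln3 was 183-fold lower, at 2.62 after weaning and 10.13 during suckling, the first of which lies under the array medians. The sialic acid exporter gene Slc17a5 was 19.1-fold, Cln3 7.63-fold and the cystine exporter gene Ctns 4.56-fold lower. Mcoln3, Cln3 and Ctns averaged 2.62, 4.98 and 4.77 after weaning, below the filter level, so that the filter favoured their fall.

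Among 8 measured partners and substrates of cathepsins 5 fell and 3 rose. Over all genes tested 41.8% were called lower and 31.1% higher, shares that apply to each list of this paragraph. Beside Glb1, progranulin (Grn), which cathepsins cut into granulins, was 4.30-fold lower, and the rises were those of Gzmb, Gzma and Cd74. Of 6 measured regulators of lysosomal genes 5 fell and 0 rose. That count mixes Tfeb and its relatives with genes of other kinds, Prdm1 among them, and so has no single meaning. Tfeb was 2.01-fold lower and its relative Tfec 86.3-fold lower, at 2.83 after weaning and 9.26 during suckling, again a level under the array medians. Tfe3 had a log2 difference of -0.02 and was not called. Prdm1, a repressor of the adult enterocyte programme, was 9.60-fold lower. Flcn, a regulator of TFEB and TFE3 at the lysosome, was 4.26-fold lower. Tfec, Prdm1 and Tfeb averaged 2.83, 5.53 and 5.79 after weaning, below the filter level, so that the filter favoured their fall. On day 32 against day 24, 2 of the 6 regulators were called higher, among them Prdm1 (2.28-fold), and 1 lower, where 12.3% of all genes were called. Of 8 measured genes of endocytosis in suckling enterocytes 7 fell and 0 rose (median -2.55). The largest falls were those of Folr1, Mamdc4, Dab2 (19.5-fold) and the neonatal Fc receptor gene Fcgrt (log2 difference -3.70). Folr1, Mamdc4 and Dab2 averaged 3.42, 4.88 and 5.97 after weaning, below the filter level, so that the filter could favour their fall too.

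**Figure D4:**
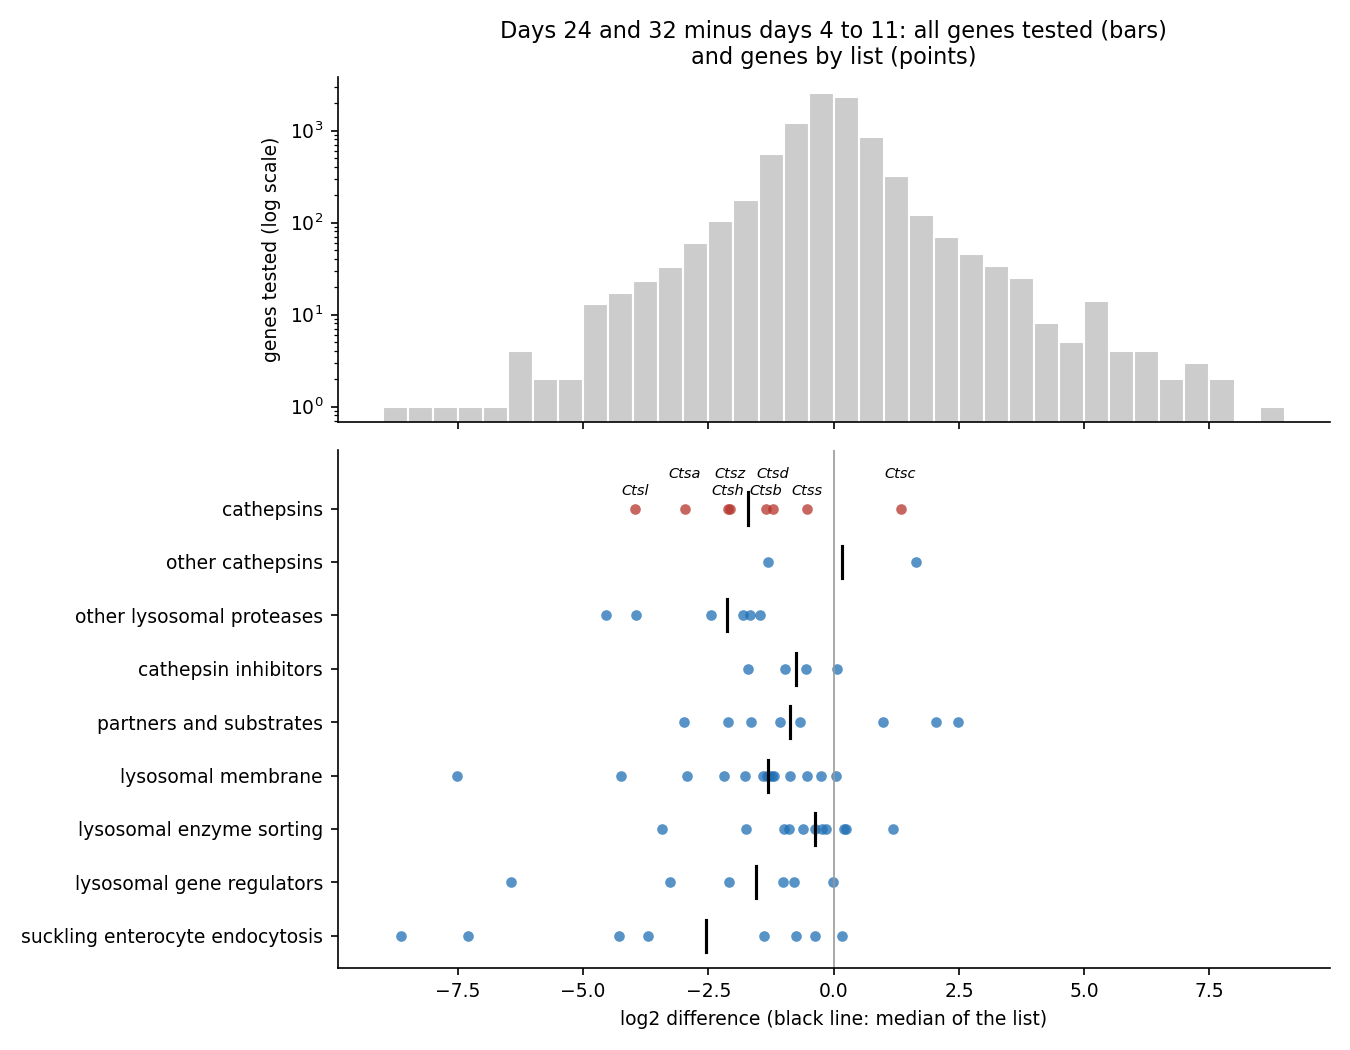
Upper panel: number of genes tested (log axis) by log2 difference of days 24 and 32 minus days 4 to 11, in bins of 0.5. Lower panel: the same difference for each cathepsin (red) and each measured gene of the other lists (blue), with list medians as black lines. Ctsc and Ctse lie right of 0, and the other lysosomal protease genes all lie left of it.

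For each cathepsin the 3 genes of most similar profile were taken by Pearson r of log2 levels over the 18 arrays, a measure that in these data mostly follows the step between the stages. For Ctsl they were Mcoln3 (r = 0.998), Stra6l (0.997) and Gpx3 (0.997), and for Ctsa Folr1 (0.997), Stra6l (0.996) and Mcoln3 (0.996). For Ctsb they were Pdzk1ip1, Plagl2 and Glb1 (0.996 to 0.992), for Ctsz Renbp, S100a1 and Mfsd11 (0.995 to 0.993), for Ctsh Snx8, Clcn6 and Ros1 (0.990 to 0.989), and for Ctsd Gss, Orai3 and Amdhd2 (0.985 to 0.983). For Ctsc they were Lratd1, Fut8 and Heatr5a (0.977 to 0.976). Ctss had the least similar neighbours, Cpn1 (0.943), Tfpi (0.940) and Kifbp (0.932), and 0 genes above 0.95, whereas Ctsl had 596.

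Mice of the same age differed in some cathepsins together. Day 4 replicate 1, day 7 replicate 3 and day 11 replicate 1, singled out after their values were seen, lay below their age means in Ctsd (-0.36, -0.47 and -0.21), Ctsz (-0.13, -0.29 and -0.31), Ctsa (-0.27, -0.14 and -0.17) and Ctsh (-0.17, -0.15 and -0.25). Ctsl on the same arrays deviated by 0.09, -0.03 and -0.10 and Ctsc by 0.20, 0.24 and -0.22. Ctsb deviated there by -0.05, -0.11 and -0.05 and Ctss by 0.07, -0.06 and -0.12. Hybridization control RNAs divided the arrays at their largest gap into 10 with a higher and 8 with a lower level. All 6 arrays after weaning and these 3 arrays, with day 4 replicate 2, made up the higher group, so that the lower group was suckling alone. Day 4 replicate 2 lay above its age mean in Ctsd (0.17), Ctsz (0.06), Ctsa (0.06) and Ctsh (0.05), unlike the 3 arrays. With the hybridization group as a block the differences between the stages were -0.92 ± 0.10 for Ctsd, -1.85 ± 0.09 for Ctsz, -2.80 ± 0.08 for Ctsa, -3.92 ± 0.11 for Ctsl and 1.34 ± 0.14 for Ctsc. Within the higher group alone they were -0.90 ± 0.12, -1.83 ± 0.11, -2.79 ± 0.11, -3.90 ± 0.13 and 1.28 ± 0.13 for the same genes, and all 8 calls held.

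**Figure D5:**
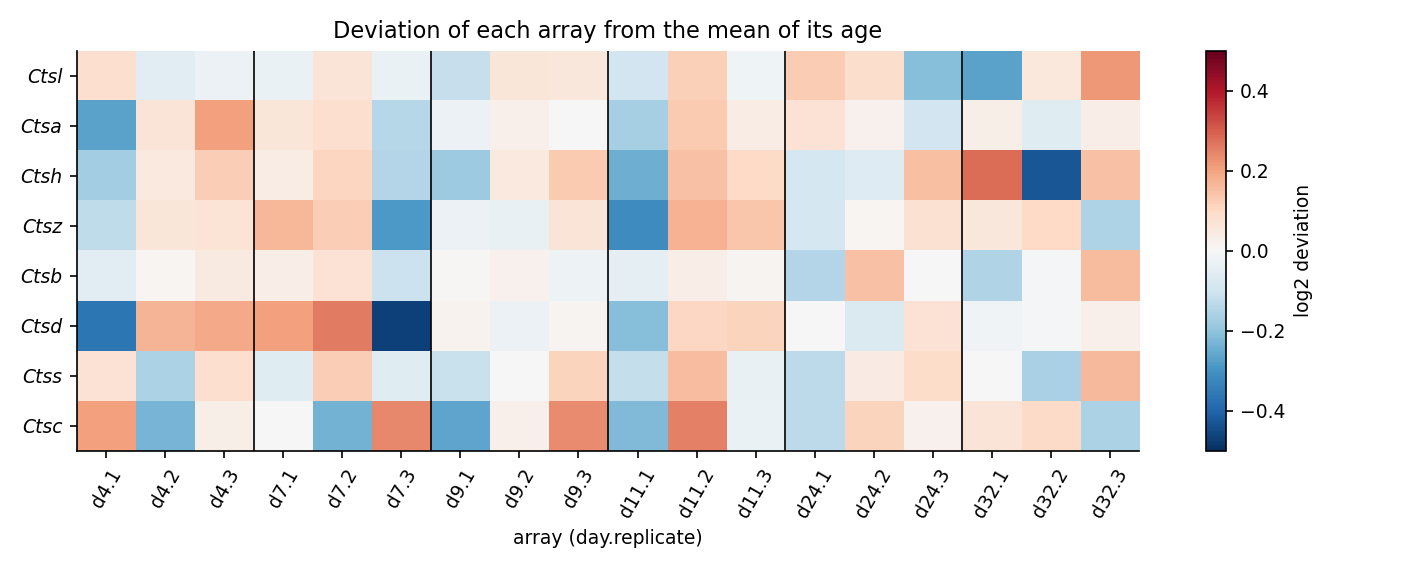
Deviation of each array (columns, day and replicate) from the mean of its age, in log2 units by colour, for each cathepsin (rows). Blue cells of Ctsd, Ctsz, Ctsa and Ctsh coincide on day 4 replicate 1, day 7 replicate 3 and day 11 replicate 1, and Ctsh is lowest on day 32 replicate 2 (-0.43).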

How the data were processed

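Ileum RNA from 18 mice was measured on Affymetrix arrays, 1 array a mouse and 3 mice at each of 6 ages. The authors deposited log2 levels; the submitters' processing notes name RMA, without version or options, a method that subtracts background and brings the arrays to a common distribution. Values ran from 1.68 to 13.71, without detection calls, and the number of arrays limits the precision. Gene names came from the platform annotation, updated by Entrez identifier to the gene table of GRCm38.p6, which matched all 8 members, and only probe sets with a single symbol were used. The brightest probe set of each gene by mean was taken, provided it read log2 6 or more on 3 arrays.

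The fits used limma (version 3.58.1, in R 4.3.3; functions lmFit and eBayes; 12 residual degrees of freedom, median residual SD 0.176), which was tested on simulated data. Errors of differences are standard errors and those of levels standard deviations. The members, gene lists and tests were chosen with earlier results of these data known. The text names all 8 cathepsins, the measured genes of the lists of other cathepsins, inhibitors and other lysosomal proteases, up to 4 called genes with the largest change from each other list, marker genes, and the 3 genes most like each member. Glb1 is both a list gene and a like gene; M6pr, Tfe3, Ctsk, the placental cathepsins and Neu1 were named after their values were seen.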

Additional observations from a re-analysis of the deposited data

How the results depend on the processing

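Up to 31 other settings were tried for each comparison: a stricter filter on dim signal (log2 8) or none, all probe sets of a gene averaged, 3 normalizations (quantile, cyclic loess, median), trend, robust and array-weight options, only the arrays of the ages compared (not for the stage differences, which use all arrays and so have 30 settings), the hybridization group as a block or its higher group alone, the Xist level as a covariate, and each array left out in turn. The 16 called differences of the cathepsins (stage, and day 24 minus day 11) gave 488 recomputed values, of which 487 kept direction and call and 0 changed sign. The exception is the Ctss difference of day 24 and day 11 in the higher hybridization group given above. That fit has fewer arrays and a single array of day 11, on which its other differences of day 24 and day 11 rest as well. Without any single array the stage difference ran from -4.01 to -3.89 for Ctsl, from -0.57 to -0.49 for Ctss and from 1.30 to 1.37 for Ctsc. The 16 uncalled differences gave 496 recomputed values, 0 of them called and 28 opposite in sign. In the F test over the suckling ages 1 gene, Ctss, was called with array weights (adjusted p = 0.0254, limma), whose estimate stopped before it converged; the cause was not tested. The number of pairs with unequal change was 26, or 27 with averaged probe sets. Over the whole table the stage comparison called 2681 genes higher and 3611 lower, against 5248 and 4999 without a filter and 1279 and 1586 with the filter at log2 8, which change how many genes are tested. No paired analysis was possible because the titles give the ages no common replicate numbers, apart from 1 number found in a day 7 and a day 9 title, and the groups compared share fewer than 2. Without detection calls, levels near the array medians cannot be told from background.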
